A study of Mus musculus with 30 samples.

Results

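Mouse neurospheres grown with epidermal growth factor (EGF) from the ganglionic eminences were compared with neurospheres from the anterior entopeduncular area that received PDGF-AA together with neurotrophin-3 (NT-3). Samples were chosen by their titles, which put 6 RNA samples in the EGF group and 3 in the PDGF-AA plus NT-3 group, 9 of the 15 RNA samples of the study. Each RNA went onto the Affymetrix chips MOE430A and MOE430B, so that the comparison rests on 18 of 30 arrays. Every gene that passed a filter on low signal was tested, 13882 in all. The remaining 6 RNA samples came from neurospheres grown with PDGF-AA alone. They were labelled as cells of embryonic day 14, cultured 7 days, with RNA at 100 ng/ul. Their values are given beside the comparison, and they also entered the estimate of the spread behind the p-values of genes.

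Both groups were labelled as cells of embryonic day 14, cultured 7 days with N2 and 2% B27 in DMEM:F12 medium. The PDGF-AA plus NT-3 samples carried both factors at a labelled 100 ng/ul each, and their RNA was labelled 192, 287 and 171 ng/ul. The EGF samples carried 100 ng/ul RNA. EGF is named in their titles, their descriptions and the protocol for purification, while the growth protocol names PDGF-AA, a disagreement between labels that was not resolved. The purity of the cultures and the contaminating cells were labelled as unknown. The labels do not say whether replicates were separate cultures, so the p-values reflect only how far these samples spread, which may be technical.

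EGF drives the division of neural stem and progenitor cells and is the usual factor for growing forebrain neurospheres. PDGF-AA acts through PDGF receptor alpha, the receptor that marks oligodendrocyte progenitors, and NT-3 acts through the receptor TrkC. The anterior entopeduncular area is a ventral forebrain region from which early oligodendrocyte progenitors arise, and the ganglionic eminences are the germinal zones of the ventral telencephalon that give rise to striatal cells and interneurons. Region and growth factor changed together in this design and cannot be told apart.

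The 2 groups also shared no array hybridisation run and no day of hybridisation, as the fluidics records of the arrays give them, so hybridisation batch and condition cannot be told apart either. The samples with PDGF-AA alone shared all 6 of their runs with the EGF samples. Where those 2 conditions were alike and PDGF-AA plus NT-3 differed, condition and batch again cannot be told apart. Pearson correlations of log2 signals over all genes were 0.876 to 0.899 between EGF samples, 0.825 to 0.852 between PDGF-AA plus NT-3 samples and 0.777 to 0.814 between the groups. The median gene had an SD of 0.342 (log2) among the EGF samples and 0.413 among the PDGF-AA plus NT-3 samples. The 3'/5' signal ratio of the Actb and Gapdh controls, which rises as RNA is degraded or copied less fully, was higher in the PDGF-AA plus NT-3 samples. For Gapdh on MOE430B the log2 ratio was 3.66 ± 0.126 (SD, n = 6) with EGF and 4.16 ± 0.0507 (SD, n = 3) with PDGF-AA and NT-3, and no sample overlapped (exact permutation test, two-sided, p = 0.0119, the smallest that 84 splits allow; adjusted over 4 ratios, 0.0238). For Actb the difference was -0.67 on MOE430B (exact permutation p = 0.0119, adjusted 0.0238) and -0.53 on MOE430A (exact permutation p = 0.0476, adjusted 0.0635). For Gapdh on MOE430A it was -0.26 (exact permutation p = 0.25), with one PDGF-AA plus NT-3 sample, at 3.52, below every EGF sample. Because of this difference, each gene group below was also counted in a fit with the mean ratio as a covariate, an alternative chosen after seeing the data. That fit is called the covariate fit from here on; over all genes it called 996 higher and 581 lower.

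**Figure D1:**
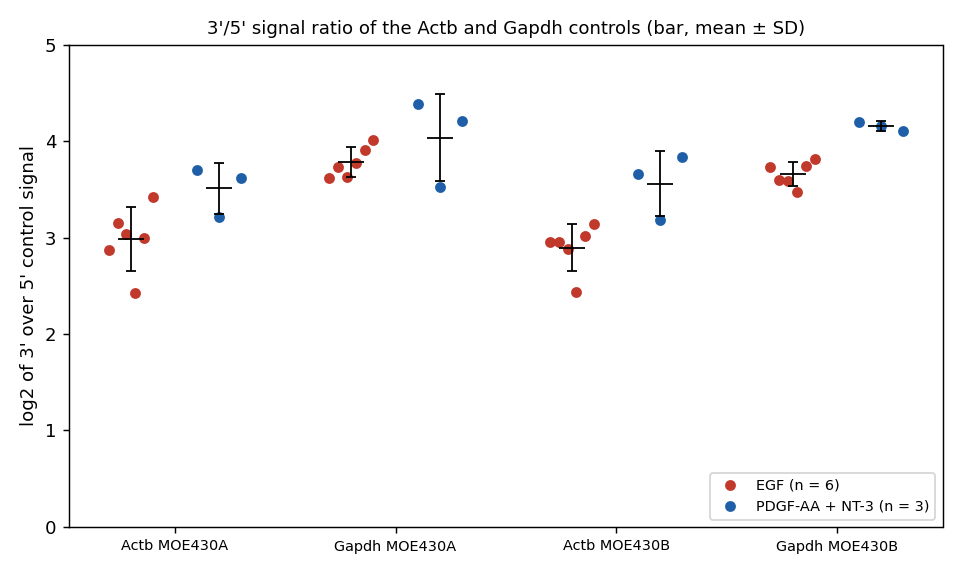
Log2 of the 3' over the 5' signal of the Actb and Gapdh controls on both chips, 1 point per sample, with the mean and SD of the 6 EGF and 3 PDGF-AA plus NT-3 samples. The groups are apart for Gapdh on MOE430B (3.66 against 4.16) and overlap for Gapdh on MOE430A.

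Of the 13882 genes, 3119 (22.5%) differed at an adjusted p under 0.05, with 1960 (14.1%) higher and 1159 (8.35%) lower with EGF. The median difference over all genes was 0.11 on the log2 scale, and 1620 genes (11.7%) differed by at least 2-fold as well. The samples of the groups did not overlap for 3007 genes (21.7%), called or not. Signals are the authors' scaled values on a linear scale, and differences are EGF minus PDGF-AA plus NT-3 in log2(signal + pseudocount), which understates the change of dim genes. Adjusted p-values come from limma with Benjamini-Hochberg adjustment over all 13882 genes, and errors of differences are SE. In these bulk samples, fewer cells of a type and less RNA per cell cannot be told apart.

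**Figure D2:**
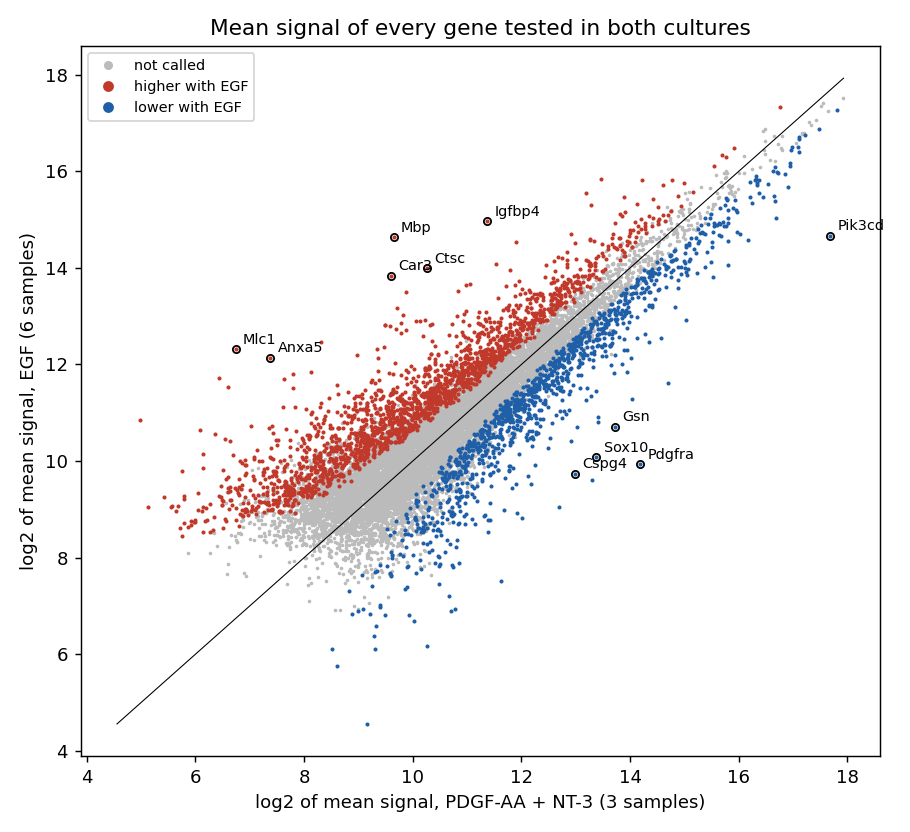
Log2 of the mean signal of each of the 13882 genes in the 3 PDGF-AA plus NT-3 samples (x axis) and in the 6 EGF samples (y axis), with equality as a line. Red points are the 1960 genes higher and blue points the 1159 genes lower with EGF, and 11 of the genes described in the text are circled.

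The 15 largest increases with EGF, among called genes whose samples did not overlap, ranged from 3.55 to 5.13 on the log2 scale. The first was Mlc1, a membrane protein of astrocyte end feet. It had a signal of 4096 to 6146 (median 5118) in the EGF samples against 58.2, 57.3 and 205 in the PDGF-AA plus NT-3 samples (log2 difference 5.13 ± 0.33, limma adjusted p = 5.32e-08). Every EGF sample was far above every sample of the other group, and with PDGF-AA alone the signal was 24 to 66.6 (median 36.7). The PDGF-AA plus NT-3 mean lay under the 25th percentile of its chip's signals, so the size of this difference rests on the pseudocount.

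Mbp, which encodes myelin basic protein, had a median signal of 24136 (range 21399.5 to 35002) with EGF and signals of 488, 879 and 1040.3 with PDGF-AA and NT-3 (log2 difference 4.95 ± 0.24, limma adjusted p = 6.7e-10). Samples with PDGF-AA alone held 13848 to 33257 (median 20673), so the PDGF-AA plus NT-3 samples were the low group among the 3 conditions. They were also the only group hybridised in runs of its own. Of the 7 other probe sets of Mbp that passed the filter, 4 were also higher with EGF (by 3.79 to 5.17), while the remaining 3 were not called and gave -1.36, 0.61 and 0.83.

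The other 13 genes with the largest increases likewise had no overlap between the groups, which the rule for naming them required. Car3, carbonic anhydrase III, had a signal of 10059.7 to 20826 (median 13805) in the EGF samples against 1236, 528 and 561 in the PDGF-AA plus NT-3 samples (log2 difference 4.21 ± 0.34, limma adjusted p = 3.9e-07). Igfbp4, which binds insulin-like growth factors, had a median signal of 30755 (range 24611 to 39634) with EGF and signals of 2941, 2772 and 2252 with PDGF-AA and NT-3 (log2 difference 3.55 ± 0.27, limma adjusted p = 2.54e-07), and its 4 other probe sets were higher by 2.57 to 3.60. Ctsc, the lysosomal protease cathepsin C, rose by 3.73 and its other probe set gave 0.48. Pbxip1, a protein that interacts with PBX homeobox factors, had a signal of 9668 to 14759 (median 11610.2) in the EGF samples against 803, 810.2 and 1223 in the PDGF-AA plus NT-3 samples (log2 difference 3.55 ± 0.17, limma adjusted p = 6.7e-10). Epb41l4a, of the band 4.1 family of cytoskeletal linkers, rose by 4.34 although the PDGF-AA plus NT-3 samples disagreed (37.4, 588 and 40). The rest were Tnnt1, a slow-muscle troponin T (4.71), Pla2g7, the plasma form of platelet-activating factor acetylhydrolase (4.48), the calcium-dependent phospholipid-binding proteins Anxa5 (4.36) and Anxa3 (4.30), Aldh1l1, a folate enzyme of astrocytes (4.08), Ech1, an enzyme of fatty acid oxidation (3.78), the netrin receptor Unc5b (3.74) and the selenium carrier Selenop (3.58). With Mlc1, 5 of these 15 genes were under the 25th percentile in the PDGF-AA plus NT-3 group. The mean with PDGF-AA alone was nearer to the PDGF-AA plus NT-3 mean than to the EGF mean, on a log scale, for 14 of the 15, Mbp being the exception.

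The 15 largest decreases, also taken only from called genes without overlap, ranged from -2.90 to -4.18, and the first was Pdgfra, the receptor for PDGF-AA. Pdgfra had a median signal of 929 (range 729 to 1306) with EGF and signals of 23771, 15881 and 16173 with PDGF-AA and NT-3 (log2 difference -4.18 ± 0.18, limma adjusted p = 2.19e-10). The groups were far apart, and with PDGF-AA alone the signal was 9476 to 12411 (median 11058). Its 2 other probe sets gave -3.73 and -1.91.

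Sox10, which drives oligodendrocyte development, had a signal of 503 to 1741 (median 988) in the EGF samples against 9829, 11299.5 and 10893 in the PDGF-AA plus NT-3 samples (log2 difference -3.34 ± 0.26, limma adjusted p = 3.22e-07), and its other probe set gave -0.17. Cspg4, which encodes the NG2 proteoglycan of oligodendrocyte progenitors, had a median signal of 899 (range 474 to 1295) with EGF and signals of 9494, 6398 and 8567 with PDGF-AA and NT-3 (log2 difference -3.23 ± 0.30, limma adjusted p = 1.32e-06). Gsn, the actin-severing protein gelsolin, had a signal of 902 to 2809 (median 1496) in the EGF samples against 14994, 11440.0 and 13914 in the PDGF-AA plus NT-3 samples (log2 difference -3.05 ± 0.26, limma adjusted p = 4.45e-07), and its 4 other probe sets were all negative. In none of these 3 genes did a sample of one group reach the other, which the rule for naming them required. Omg, oligodendrocyte-myelin glycoprotein, fell by 3.32 and the neuropeptide precursor Vgf by 3.51. The vesicular glutamate transporter Slc17a6 fell by 3.17, with EGF samples at 38.3 to 190.1 and PDGF-AA plus NT-3 samples at 1709, 1638 and 328.

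The probe set of Pik3cd, a catalytic subunit of phosphoinositide 3-kinase, had a median signal of 25703 (range 22058 to 32462) with EGF and signals of 156998, 282987 and 190758 with PDGF-AA and NT-3 (log2 difference -2.98 ± 0.17, limma adjusted p = 5.64e-09), while samples with PDGF-AA alone held 24289.6 to 32871 (median 29425). Its other probe set gave 0.05, so the 2 probe sets of this gene disagree. The EGF and PDGF-AA alone samples, which lay close for Pik3cd, shared their hybridisation runs. The adhesion receptor Adgrl3 fell by 3.19, but its 5 other probe sets had both signs, the lowest at -1.75, and those of AW551984 (-3.33) were at 0.23 and 1.20. The others were the phospholipid transporter Atp10b (-3.33), the mitochondrial seryl-tRNA synthetase Sars2 (-3.09), the Sprouty family member Spry3 (-3.06), Pstpip2, which binds a tyrosine phosphatase (-3.02), and the glucuronyltransferase B3gat2 (-2.90). For 4 of the 15, the EGF mean was under the 25th percentile. The mean with PDGF-AA alone lay nearer to that with NT-3 for 11 of the 15.

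Among the receptors of the added factors, Pdgfra fell, as above, and Egfr rose. Egfr, the EGF receptor, had a signal of 2434 to 4030.4 (median 3422) in the EGF samples against 1486, 1388 and 1290.2 in the PDGF-AA plus NT-3 samples (log2 difference 1.22 ± 0.24, limma adjusted p = 0.00166). Its 5 other probe sets ran from -0.15 to 2.87, and with PDGF-AA alone the signal was 2561 to 6461 (median 4371). Ntrk3, which encodes TrkC, the receptor of NT-3, had a median signal of 372 (range 67 to 524) with EGF and signals of 602, 794 and 782 with PDGF-AA and NT-3, without a call (log2 difference -1.11 ± 0.45, limma adjusted p = 0.0846), but 3 of its 4 other probe sets were called lower with EGF, at -2.52, -1.49 and -1.14 (limma adjusted p = 0.00337, 0.00957 and 0.000411), and the remaining one was at 0.59 without a call. The probe sets of Ntrk3 thus differ in their call. Ntrk2, which encodes TrkB, had a signal of 13365 to 16525 (median 14237) in the EGF samples against 8699, 8697 and 9063 in the PDGF-AA plus NT-3 samples (log2 difference 0.71 ± 0.11, limma adjusted p = 0.000249), with all 5 other probe sets positive. Ngfr, the low-affinity neurotrophin receptor, had overlapping groups and no call (log2 difference -0.83 ± 0.68, limma adjusted p = 0.404).

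**Figure D3:**
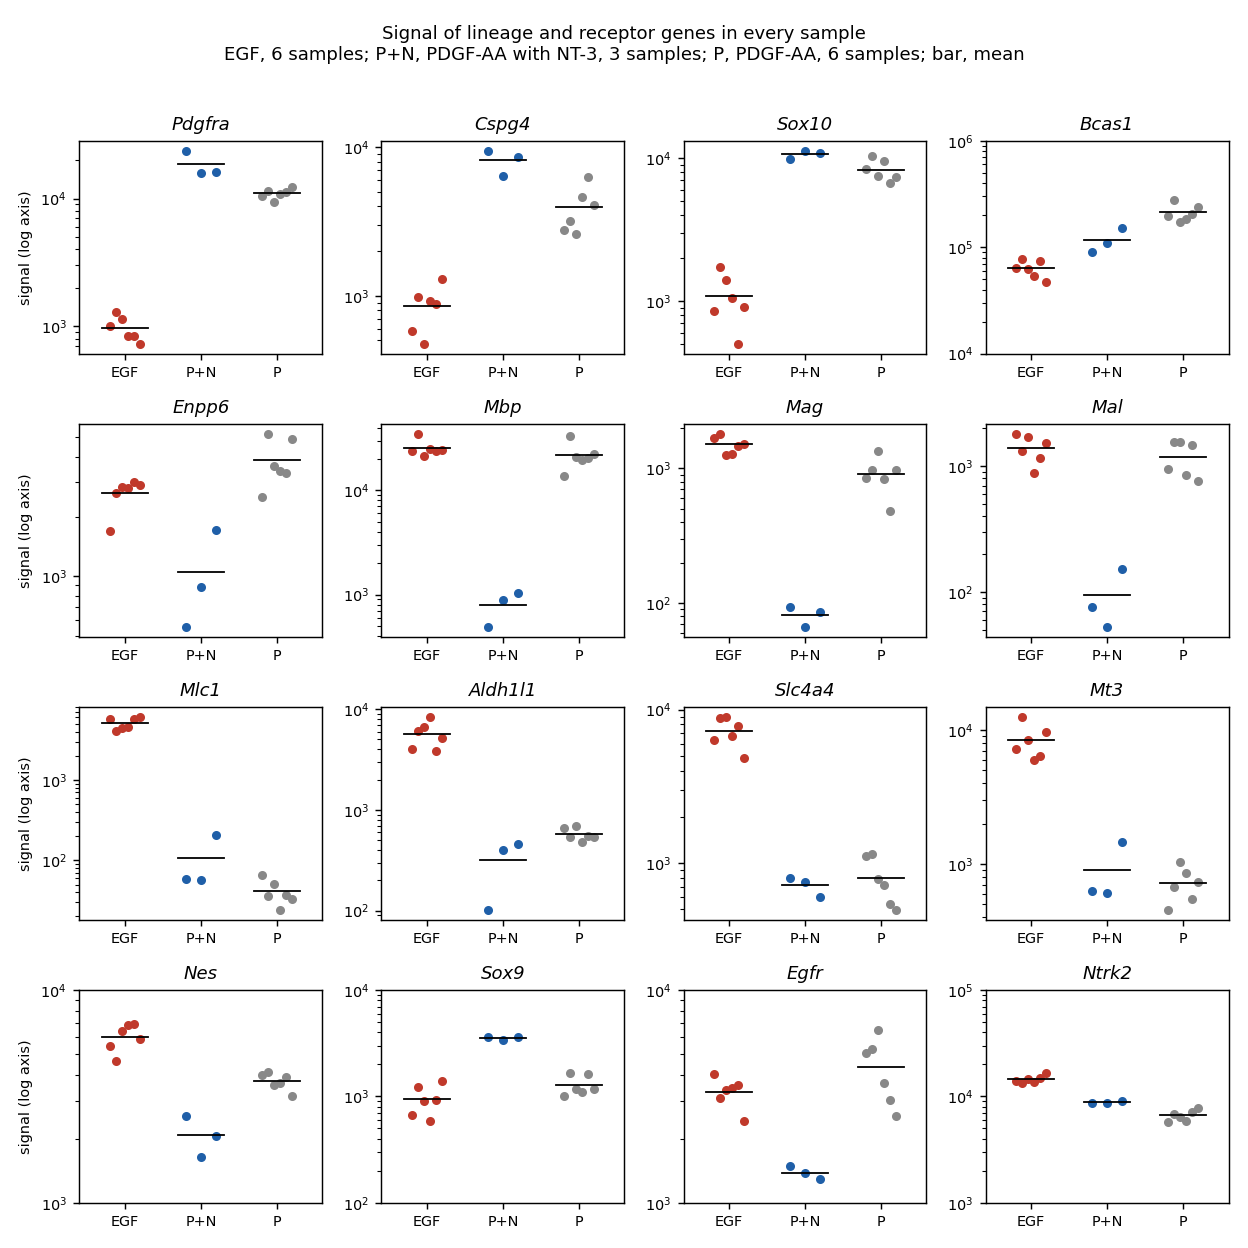
Signal (log axis) of 16 lineage and receptor genes in every sample of the 3 conditions, with the group mean as a bar. Mbp, Mag and Mal are high with EGF and with PDGF-AA alone and low with PDGF-AA and NT-3, while Mlc1, Aldh1l1, Slc4a4 and Mt3 are high with EGF only among the 3 conditions and Pdgfra, Cspg4 and Sox10 are low with EGF. The EGF and PDGF-AA alone samples shared hybridisation runs, and the PDGF-AA plus NT-3 samples had runs of their own.

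Genes of oligodendrocyte progenitors were mostly lower with EGF: 13 of the 23 tested fell, 1 rose and 9 were not called, against 8.35% lower and 14.1% higher over all genes. The median of the list was -0.72, against 0.11 over all genes. Besides Pdgfra, Sox10 and Cspg4, the genes that fell were the lineage transcription factors Olig1 (-1.28), Nkx2-2 (-1.61) and Sox6 (-1.13), the membrane proteins Lhfpl3 (-1.62), Ptprz1 (-1.02), Gpr17 (-0.96) and Cacng4 (-0.72), the matrix proteins Matn4 (-2.30) and Vcan (-0.98), and the kinase Fyn (-0.55). Other probe sets of Ptprz1 and Vcan included positive values. Olig2, the partner of Olig1, was at 0.13 and was not called. The exception was Sox8, a relative of Sox10, with a median signal of 3453 (range 3129 to 4373) with EGF and signals of 80.9, 788 and 1534 with PDGF-AA and NT-3 (log2 difference 2.46 ± 0.45, limma adjusted p = 0.000835). With the 3'/5' ratio as a covariate, 9 genes of the list were called lower and Sox8 was not called. The call of Vcan was lost in 6 of the 9 fits that left out a sample, and without PDGF-AA plus NT-3 replicate 2 the list had 2 genes higher.

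Several myelin genes were higher with EGF: 7 of 18 tested rose, 1 fell and 10 were not called. That is 44.4% called, against 22.5% over all genes, with a median of 0.44. After Mbp came Mag, myelin-associated glycoprotein, with a signal of 1259 to 1816 (median 1502) in the EGF samples against 93.9, 66.5 and 86.1 in the PDGF-AA plus NT-3 samples (log2 difference 3.53 ± 0.29, limma adjusted p = 3.9e-07). Mal, a lipid-raft protein of myelin, had a median signal of 1423 (range 882 to 1821) with EGF and signals of 75.2, 52.5 and 153 with PDGF-AA and NT-3 (log2 difference 3.34 ± 0.33, limma adjusted p = 2.4e-06). Both had PDGF-AA plus NT-3 means under the 25th percentile of the chip, so the sizes of these differences rest on the pseudocount. With PDGF-AA alone Mag was 486 to 1359.6 (median 913) and Mal 766 to 1562 (median 1215). Mobp, a myelin-associated basic protein, rose by 3.37, carbonic anhydrase II (Car2) by 3.03, the fatty acid hydroxylase Fa2h by 1.23 and Cnp, the cyclic nucleotide phosphodiesterase of myelin, by 0.64. Another probe set of Mobp had the opposite sign. The 1 that fell was Gsn, also in the list of largest decreases. The tight junction protein of myelin Cldn11 (0.31) and the tetraspanin Tspan2 (0.75) were not called. With the covariate 5 rose and 1 fell, and 2 fell without EGF replicate 2 or PDGF-AA plus NT-3 replicate 1.

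Genes of newly formed oligodendrocytes, the stage between progenitor and myelinating cell, were mixed: 4 of 13 rose, 1 fell and 8 were not called. The share called was 38.5%, against 22.5% over all genes, and the median was 0.35. Enpp6, a choline phosphodiesterase of that stage, had a signal of 1699 to 2973 (median 2796) in the EGF samples against 555, 882 and 1719 in the PDGF-AA plus NT-3 samples (log2 difference 1.34 ± 0.28, limma adjusted p = 0.00238), and the third PDGF-AA plus NT-3 sample overlapped the lowest EGF sample. Bcas1 had a median signal of 63411 (range 47438 to 77065) with EGF and signals of 90681, 109991 and 151923 with PDGF-AA and NT-3 (log2 difference -0.88 ± 0.19, limma adjusted p = 0.00316), and with PDGF-AA alone it was highest, at 171226 to 279568 (median 201201). The other 3 that rose were Rras2 (1.05, with another probe set at -0.14), the fatty acid elongase Elovl7 (1.38) and Plekha1 (0.78). Myrf, the transcription factor of myelination, was not called (0.35). With the covariate 1 gene of this list rose, and 2 rose without EGF replicate 3 or 4 or without PDGF-AA plus NT-3 replicate 1 or 3. The number that fell was 2 without EGF replicate 2 or 4. Plekha1 lost its call in 6 of the 9 fits without a sample and Elovl7 in 5.

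Many astrocyte genes were higher with EGF: 12 of 22 tested rose, none fell and 10 were not called. That is 54.5% called, against 22.5% over all genes, with a median of 1.26. Slc4a4, the sodium bicarbonate cotransporter, had a signal of 4834 to 8989.7 (median 7289.9) in the EGF samples against 801, 748 and 595 in the PDGF-AA plus NT-3 samples (log2 difference 3.23 ± 0.27, limma adjusted p = 3.9e-07), a level of 492 to 1151 (median 750.3) being found with PDGF-AA alone. Aldh1l1 had a median signal of 5628 (range 3843 to 8427) with EGF and signals of 101, 396 and 461 with PDGF-AA and NT-3 (log2 difference 4.08 ± 0.33, limma adjusted p = 3.9e-07), and Pla2g7 had a signal of 1462 to 2827 (median 1641) in the EGF samples against 21.1, 46.7 and 26.4 in the PDGF-AA plus NT-3 samples (log2 difference 4.48 ± 0.37, limma adjusted p = 4.03e-07). The gap junction protein Gja1 rose by 3.35 and the acyl-CoA synthetase Acsbg1 by 3.23, followed by Fgfr3 (1.43), glutamine synthetase Glul (1.29), the glutamate transporter Slc1a2 (1.25), Mfge8 (0.78) and Hepacam (0.66). The intermediate filament Gfap (1.78), the water channel Aqp4 (1.28), Apoe (0.99), Aldoc (0.24) and S100b (-0.38) were not called. With the covariate 11 rose and none fell.

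The list for radial glia and stem cells was split: 11 of 24 rose, 3 fell and 10 were not called. The share called was 58.3%, against 22.5% over all genes, and the median was 0.35. Nes, the stem cell intermediate filament nestin, had a median signal of 6142 (range 4642 to 6919) with EGF and signals of 2547, 1640.2 and 2054 with PDGF-AA and NT-3 (log2 difference 1.52 ± 0.16, limma adjusted p = 5.16e-06). Mt3, a metallothionein of glia, had a signal of 5932 to 12523 (median 7780.0) in the EGF samples against 633, 607 and 1465 in the PDGF-AA plus NT-3 samples (log2 difference 3.20 ± 0.30, limma adjusted p = 1.55e-06), and Ptn, the growth factor pleiotrophin, had a median signal of 22571 (range 19108 to 29310.0) with EGF and signals of 10100.1, 6302 and 7932 with PDGF-AA and NT-3 (log2 difference 1.54 ± 0.16, limma adjusted p = 5.31e-06). The matrix protein tenascin C (Tnc, 2.05), the hyaluronan receptor Cd44 (3.00), Prom1 (1.78), the glutamate transporter Slc1a3 (1.33), the nuclear receptor Nr2e1 (1.52) and Sox1 (1.29) were called higher as well, but Nr2e1 lost its call in 8 of the 9 fits without a sample and Sox1 in 7, and both in the covariate fit. Sox9, a transcription factor of glial fate, ran against these, with a signal of 584 to 1387 (median 913) in the EGF samples against 3603, 3395 and 3649.8 in the PDGF-AA plus NT-3 samples (log2 difference -1.91 ± 0.26, limma adjusted p = 6.79e-05), and its 2 other probe sets were also negative. Vim (-0.83) and the receptor Notch1 (-0.95) fell, and Hes5 (-0.92) and the stem cell factor Sox2 (-0.11) were not called. Other probe sets of Nes (0.63), Ptn (0.32 and 0.36) and Cd44 (0.89) were positive without a call. With the covariate 8 rose and 2 fell, and without EGF replicate 2 the number that fell was 5.

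**Figure D4:**
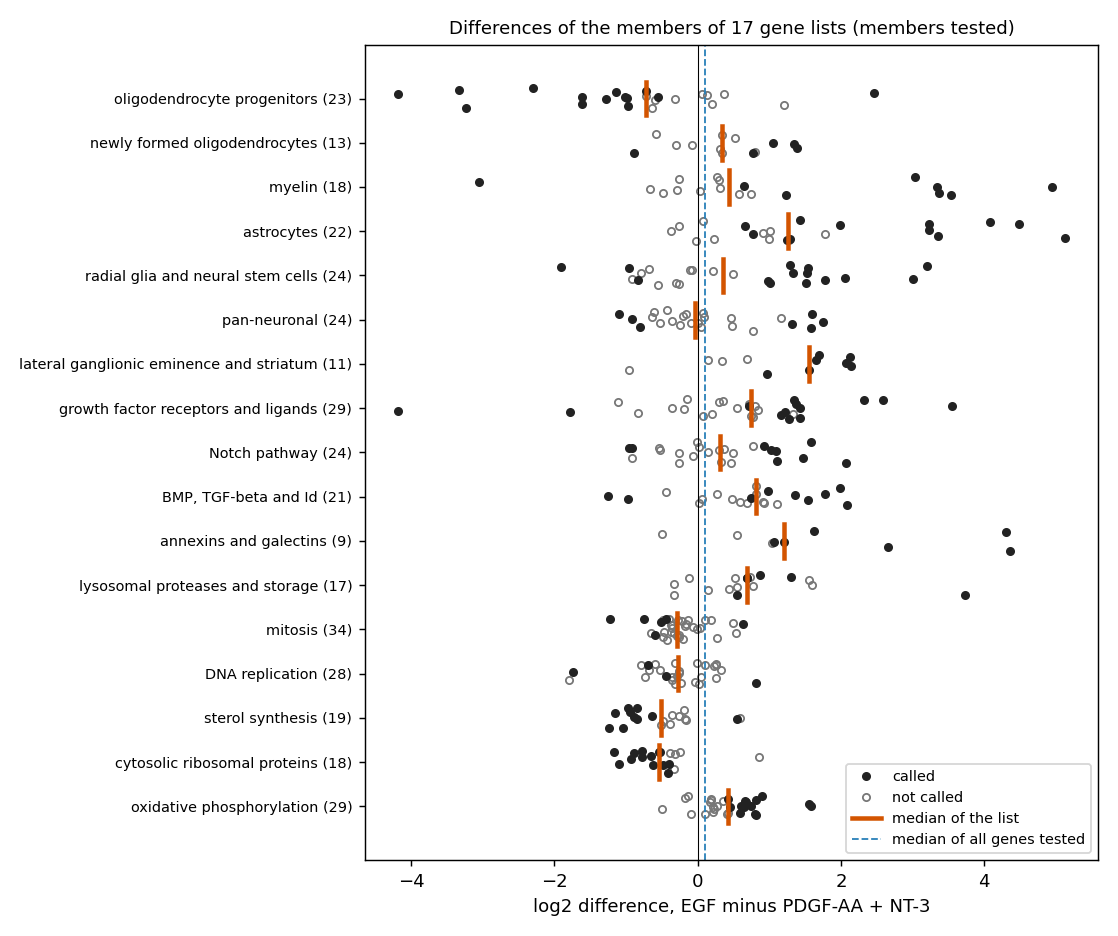
Log2 differences (EGF minus PDGF-AA plus NT-3) of the tested members of 17 gene lists, 1 point per gene, filled where the gene was called, with the list's median (orange) and the median of all genes, 0.11 (dashed). Oligodendrocyte progenitor genes have a median of -0.72 and astrocyte genes of 1.26, while cytosolic ribosomal proteins and sterol synthesis lie mostly under 0.

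Neuronal genes showed no common direction. Of 24 pan-neuronal genes, 4 rose and 3 fell (29.2% called, against 22.5% over all genes), with a median of -0.04. Elavl3, a neuronal RNA-binding protein, had a median signal of 7663 (range 4654 to 8731) with EGF and signals of 1903, 3131 and 2244 with PDGF-AA and NT-3 (log2 difference 1.58 ± 0.19, limma adjusted p = 1.62e-05), while Stmn3, a microtubule regulator, had a signal of 12157 to 21769 (median 17957) in the EGF samples against 29505, 47245 and 27213 in the PDGF-AA plus NT-3 samples (log2 difference -0.92 ± 0.21, limma adjusted p = 0.00456). Other probe sets of Elavl3 gave 0.04 and 0.93, without a call. With PDGF-AA alone, Elavl3 was 8724 to 11757 (median 10335) and Stmn3 36592 to 61106 (median 45017). Gap43, a growth cone protein, fell by 0.81 and Nefm, a neurofilament, by 1.10 (its call being lost in 6 of the 9 fits without a sample and in the covariate fit), whereas Rbfox3 (1.32), Myt1l (1.60) and Syn1 (1.76) rose. Without the third PDGF-AA plus NT-3 sample, in which Syn1 stood at 77 against 830 and 1383, the list gave 2 higher and 5 lower, and without the second 1 was lower, so single libraries decide this split. In the covariate fit 2 pan-neuronal genes were higher and 3 lower. Dcx, which marks young neurons, was not called (1.16). Synaptic vesicle genes gave 3 higher and 1 lower of 22 (18.2% called, against 22.5% over all genes), and 1 higher and none lower in the covariate fit. They were led by the fusion regulator Cplx2, with a median signal of 8133 (range 5325 to 9417) with EGF and signals of 1408, 1144 and 668 with PDGF-AA and NT-3 (log2 difference 2.81 ± 0.23, limma adjusted p = 3.9e-07).

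Lists of genes that mark forebrain regions varied in the share called, against 22.5% over all genes. Of 11 genes of the lateral ganglionic eminence and striatum, 7 were higher with EGF and none lower, with a median of 1.55. Meis2 had a signal of 3119 to 4581 (median 4114) in the EGF samples against 1689, 991 and 1103 in the PDGF-AA plus NT-3 samples (log2 difference 1.65 ± 0.24, limma adjusted p = 0.000103), and Six3 a median signal of 2523 (range 2035 to 2824) with EGF and signals of 857, 1176 and 1933 with PDGF-AA and NT-3 (log2 difference 0.97 ± 0.23, limma adjusted p = 0.00654). Foxp2 rose by 2.13, Rarb by 2.15, Bcl11b by 2.07, Sp8 by 1.55 and Foxp1 by 1.69, the last with another probe set at -0.31. Other probe sets of Foxp2 gave 0.47 to 0.62, without a call. Leaving out the first PDGF-AA plus NT-3 sample brought the 7 to 3, as did the covariate, and without the filter on low signal the list's median was 0.42. Bcl11b lost its call in 4 of the 9 fits without a sample. Of 10 genes of the dorsal telencephalon, 3 rose and 2 fell, and 1 rose and 2 fell in the covariate fit. Emx2, a dorsal homeobox gene, had a signal of 2072 to 4440.2 (median 3194) in the EGF samples against 151, 267 and 177 in the PDGF-AA plus NT-3 samples (log2 difference 3.44 ± 0.40, limma adjusted p = 1.6e-05), the latter under the 25th percentile in the mean, and Dmrta1 had a median signal of 1465 (range 840.0 to 2244) with EGF and signals of 4497, 5497 and 5129.7 with PDGF-AA and NT-3 (log2 difference -1.70 ± 0.24, limma adjusted p = 8.81e-05). Of 13 genes of GABAergic neurogenesis 1 rose, Npy (1.23), and 1 fell, Gsx1 (-1.90), which is 15.4% called and under the share over all genes. Both counts stayed at 1 in the covariate fit, but none rose without PDGF-AA plus NT-3 replicate 2. Of 6 septal and ventral midline genes 1 rose, Sp8, and 1 fell, Spry1, and each of these is also counted in another list. There the number that rose was 0 without PDGF-AA plus NT-3 replicate 1 or 3 and 2 without replicate 2, and no gene of that list was called in the covariate fit.

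Among growth factor receptors and ligands, 11 of 29 rose, 2 fell and 16 were not called. That is 44.8% called, against 22.5% over all genes, with a median of 0.75. Igfbp2, which binds insulin-like growth factors, had a signal of 18824 to 31943 (median 23275) in the EGF samples against 3729.9, 3499.9 and 4291 in the PDGF-AA plus NT-3 samples (log2 difference 2.59 ± 0.19, limma adjusted p = 2.34e-07). Hbegf, a ligand of the EGF receptor, had a median signal of 4719.9 (range 3266 to 5399) with EGF and signals of 1807, 2212 and 1969.8 with PDGF-AA and NT-3 (log2 difference 1.16 ± 0.18, limma adjusted p = 0.000243), while Tgfa, another of its ligands, fell by 1.78 with another probe set of opposite sign. Lrig1, which limits EGF receptor signalling, rose by 2.32, Igfbp3 by 1.43 and Igf1 by 1.38. With the covariate 8 rose and 2 fell. Of 17 genes that respond to ERK signalling, 3 rose and 5 fell (47.1% called). Dusp6, the phosphatase that acts on ERK, had a signal of 5426 to 8176 (median 7122) in the EGF samples against 3131, 1796 and 2624 in the PDGF-AA plus NT-3 samples (log2 difference 1.5 ± 0.23, limma adjusted p = 0.000171), and Ier3 rose by 1.34. Phlda1 had a median signal of 1438 (range 1097 to 1673) with EGF and signals of 3463, 2797 and 3310.2 with PDGF-AA and NT-3 (log2 difference -1.15 ± 0.17, limma adjusted p = 0.000159), and Spry1 (-0.74), Ccnd1 (-0.61), Fos (-0.47) and Ier2 (-0.62) fell. The 5 that fell became 2 with the covariate and 2 with a separate spread for each condition, and 3 without EGF replicate 5 or without PDGF-AA plus NT-3 replicate 1 or 2. The other probe sets of Ccnd1 had the opposite sign, and Ier2 lost its call in 6 and Fos in 3 of the 9 fits without a sample.

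Of 24 Notch pathway genes, 7 rose and 2 fell, against 14.1% higher and 8.35% lower over all genes. Nrarp, a Notch target and inhibitor, had a signal of 2967 to 4336 (median 3374) in the EGF samples against 1384, 1648 and 1799 in the PDGF-AA plus NT-3 samples (log2 difference 1.10 ± 0.18, limma adjusted p = 0.000417), and Lfng and Mfng, which add sugars to Notch, rose by 1.58 and 2.07. Dll3, a divergent ligand, fell by 0.92 together with Notch1, while Notch3 rose by 1.09. Of 21 genes of BMP and TGF-beta signalling and the Id family, 7 rose and 2 fell, the latter being 1 without EGF replicate 1 or 6 or PDGF-AA plus NT-3 replicate 1 or 2. Id3, an inhibitor of helix-loop-helix factors, had a median signal of 3851 (range 3339 to 4173) with EGF and signals of 715, 889 and 1228 with PDGF-AA and NT-3 (log2 difference 1.98 ± 0.19, limma adjusted p = 2.21e-06), whereas its relative Id2 had a signal of 774 to 1954 (median 1255) in the EGF samples against 2727, 3071 and 3313 in the PDGF-AA plus NT-3 samples (log2 difference -1.25 ± 0.26, limma adjusted p = 0.00234). Tgfb1 (2.09), the antagonist Grem1 (1.36), Id4 (0.99), Smad5 (1.78) and Smad1 (0.74) rose and Bmp7 (-0.97) fell, the call of Bmp7 being lost in 4 of the 9 fits without a sample. Over 23 other fits Tgfb1 ran from 0.02 to 2.71 and lost its call in 2. The other probe set of Smad5 gave 0.58 and that of Smad1 0.06, the latter without a call. With the covariate the Notch genes gave 4 higher and 1 lower, and the BMP genes 5 higher and 1 lower. Without the filter on low signal, 5 of 26 BMP genes were higher and 2 lower, with a median of 0.50.

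Of 9 Hedgehog pathway genes, 3 rose and none fell (33.3% called, against 22.5% over all genes). Gli3, which mostly represses Hedgehog targets, had a median signal of 7564 (range 5699 to 8310.1) with EGF and signals of 2259, 1101 and 1704 with PDGF-AA and NT-3 (log2 difference 2.08 ± 0.20, limma adjusted p = 2.37e-06), and the co-receptor Cdon had a signal of 5658 to 11894 (median 9004) in the EGF samples against 4311, 3659 and 2367 in the PDGF-AA plus NT-3 samples (log2 difference 1.35 ± 0.21, limma adjusted p = 0.000194). Without the filter on low signal Cdon was read from another probe set and gave -0.61. Without the filter 1 Hedgehog gene was called higher, and in the covariate fit 2 were. Of 21 Wnt pathway genes, 6 rose and 1 fell (33.3% called). The Wnt target Axin2 had a median signal of 1574 (range 1305 to 1933) with EGF and signals of 737, 809.8 and 460.3 with PDGF-AA and NT-3 (log2 difference 1.20 ± 0.32, limma adjusted p = 0.0109). The Wnt count rests on few samples: 3 genes rose without the first PDGF-AA plus NT-3 sample and 3 without the third, and 1 rose with the covariate or with a separate spread for each condition. The number that fell was 2 without the first and 0 with the covariate.

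Many sterol synthesis genes were lower with EGF: 9 of 19 fell, 1 rose and 9 were not called. That is 52.6% called, against 22.5% over all genes, with a median of -0.51. Lss, which makes lanosterol, had a signal of 4652 to 6207 (median 5346) in the EGF samples against 12679, 10363 and 15235 in the PDGF-AA plus NT-3 samples (log2 difference -1.24 ± 0.16, limma adjusted p = 4.71e-05). Fdft1, squalene synthase, had a median signal of 9678 (range 7835 to 11869.7) with EGF and signals of 18809, 21211 and 24656 with PDGF-AA and NT-3 (log2 difference -1.16 ± 0.15, limma adjusted p = 5.09e-05), although its 3 other probe sets ran from -1.23 to 1.19. Tm7sf2, a sterol reductase, had a signal of 2732 to 3524 (median 3051) in the EGF samples against 5671, 7966 and 5939 in the PDGF-AA plus NT-3 samples (log2 difference -1.04 ± 0.18, limma adjusted p = 0.000448). In none of these 3 genes did the groups overlap, and the samples with PDGF-AA alone had medians of 6715, 11049 and 3715, between those of the groups compared. Squalene epoxidase (Sqle, -0.95), Msmo1 (-0.88), the mevalonate kinases Pmvk (-0.84) and Mvk (-0.98), Dhcr7 (-0.84) and Srebf2, the transcription factor of the pathway (-0.63), fell too. Fdps was the 1 that rose (log2 difference 0.55 ± 0.19, limma adjusted p = 0.0457), and it was not called in 14 of 23 other fits, among them 6 of the 9 that left out a sample. Dhcr7 was likewise not called in 15 of 23 other fits, among them 8 of those 9, and Mvk lost its call in 3 of the 9. Mvd (-0.51) and Idi1 (-0.26), enzymes of the mevalonate branch, were not called. With the covariate 5 fell and none rose.

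The promoters of genes of this group hold a shared letter run, shown here because most of its called genes fell. RefSeq promoter entries (assembly GRCm38.p6) existed for 16 of the 19 genes tested and 7 of the 9 that fell. In the 250 bases before the start, the letters CCAAT, on either strand, were found in 16 of the 16, and in 39.7% of the 11136 tested genes with an entry, counting a gene with several starts once if any start had it. TCACNCCAC, a form of the sterol response element, was found on either strand in 1 of the 16 and in 1.3% of tested genes. The match is a description of these letters only. The 4 sequences below are the 250 bases before the start of the genes that fell with the smallest adjusted p among those with a single RefSeq start, 5' to 3' on the gene's strand, with CCAAT or its reverse complement in capitals.
Lss: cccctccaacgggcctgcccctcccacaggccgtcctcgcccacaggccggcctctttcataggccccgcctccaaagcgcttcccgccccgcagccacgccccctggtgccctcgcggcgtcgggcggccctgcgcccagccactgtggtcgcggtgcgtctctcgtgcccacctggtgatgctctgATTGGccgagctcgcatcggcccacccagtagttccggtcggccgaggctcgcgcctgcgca
Tm7sf2: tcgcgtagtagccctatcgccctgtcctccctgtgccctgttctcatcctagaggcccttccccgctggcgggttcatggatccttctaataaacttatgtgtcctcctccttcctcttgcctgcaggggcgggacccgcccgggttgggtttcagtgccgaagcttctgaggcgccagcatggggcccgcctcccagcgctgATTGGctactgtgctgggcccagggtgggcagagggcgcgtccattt
Msmo1: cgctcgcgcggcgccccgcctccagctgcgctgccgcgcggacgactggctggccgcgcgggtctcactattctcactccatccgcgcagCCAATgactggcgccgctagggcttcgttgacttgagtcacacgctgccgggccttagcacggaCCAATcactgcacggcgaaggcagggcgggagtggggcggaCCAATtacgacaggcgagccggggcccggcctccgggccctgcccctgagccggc
Srebf2: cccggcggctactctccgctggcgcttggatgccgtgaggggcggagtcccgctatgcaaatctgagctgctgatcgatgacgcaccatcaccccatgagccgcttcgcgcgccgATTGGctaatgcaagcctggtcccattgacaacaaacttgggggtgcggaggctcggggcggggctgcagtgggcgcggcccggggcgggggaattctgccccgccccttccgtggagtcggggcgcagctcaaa
Lss lies at chr10:76531355-76531604 (plus strand), Tm7sf2 at chr19:6067851-6068100 (minus strand), Msmo1 at chr8:64733579-64733828 (minus strand) and Srebf2 at chr15:82147019-82147268 (plus strand). The first capital letter lies 62 bases before the start in Lss, 47 in Tm7sf2, 160, 96 and 55 in Msmo1, and 135 in Srebf2.

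Cytosolic ribosomal protein genes were mostly lower with EGF: 13 of 18 tested fell, none rose and 5 were not called. The share called was 72.2%, against 22.5% over all genes, and the median was -0.53. Of the 32 genes of this list, 13 had no probe set of their own and 1 was under the filter, so these were not tested. Rplp2 had a median signal of 45547 (range 40136 to 51174) with EGF and signals of 107183, 101442 and 99004 with PDGF-AA and NT-3 (log2 difference -1.16 ± 0.13, limma adjusted p = 1.07e-05), and Rpl8 had a signal of 28149.8 to 35409 (median 32240.4) in the EGF samples against 53214, 53826 and 54636 in the PDGF-AA plus NT-3 samples (log2 difference -0.77 ± 0.12, limma adjusted p = 0.000223). Rps19 (-0.89), Rplp0 (-0.93), Rpl14 (-1.10) and Rpsa (-0.77) fell as well, and the smallest fall that was called was that of Rps3 (-0.40, with another probe set of opposite sign). The EGF values lay near those with PDGF-AA alone, where Rplp2 was 37905 to 61433 (median 45598). The count was 4 with the 3'/5' ratio as a covariate and 7 after quantile normalization, in both cases with none higher, and 9 were lower and 1 higher without PDGF-AA plus NT-3 replicate 3.

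Many genes of oxidative phosphorylation, the mitochondrial respiratory chain, were higher with EGF: 14 of 29 rose, none fell and 15 were not called. The share called was 48.3%, against 22.5% over all genes, and the median was 0.43. Sdha, the flavoprotein of complex II, had a median signal of 18362 (range 17643 to 22135) with EGF and signals of 5971, 7148 and 6465 with PDGF-AA and NT-3 (log2 difference 1.55 ± 0.13, limma adjusted p = 6.28e-07). Cox8a, a subunit of cytochrome oxidase, had a signal of 13246 to 23210.2 (median 15848) in the EGF samples against 5835, 4876 and 6053 in the PDGF-AA plus NT-3 samples (log2 difference 1.58 ± 0.18, limma adjusted p = 1.02e-05), and Cycs, cytochrome c, had a median signal of 38831 (range 37054 to 44030.4) with EGF and signals of 24227, 20887 and 25397 with PDGF-AA and NT-3 (log2 difference 0.74 ± 0.10, limma adjusted p = 5.74e-05). Most differences were small, between 0.43 for Cox5a and 0.90 for Sdhd. The count was 9 with the covariate and 19 after quantile normalization, and 1 was lower without PDGF-AA plus NT-3 replicate 2.

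**Figure D5:**
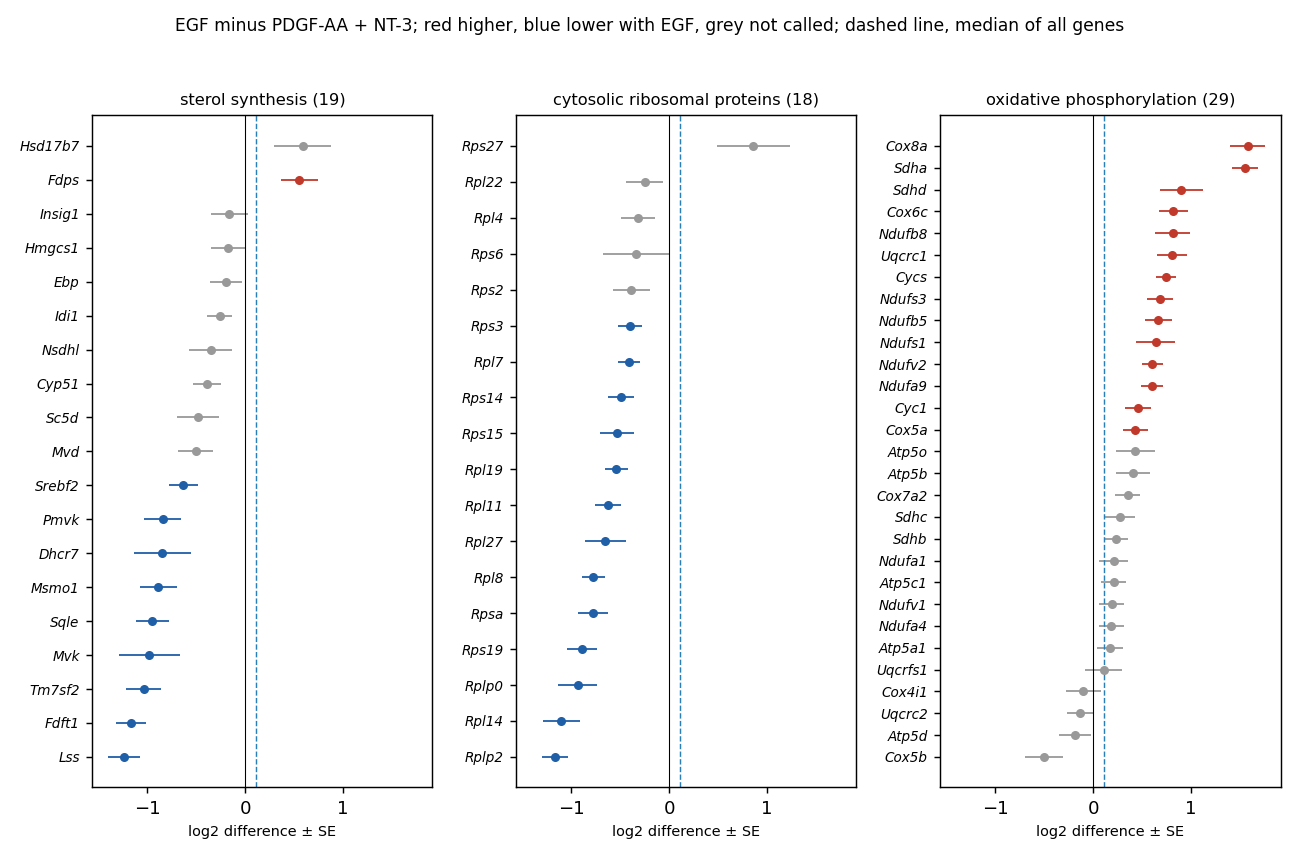
Log2 difference ± SE (EGF minus PDGF-AA plus NT-3) of each tested gene of sterol synthesis, of cytosolic ribosomal proteins and of oxidative phosphorylation. Blue points are lower and red points higher with EGF, with 9 sterol genes and 13 ribosomal protein genes lower and 14 oxidative phosphorylation genes higher.

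Of 28 DNA replication genes 1 rose and 3 fell (14.3% called), and of 34 mitosis genes 1 rose and 5 fell (17.6% called), against 22.5% called over all genes, with medians of -0.27 and -0.28. Fen1, the flap endonuclease, had a signal of 11600.0 to 20958 (median 17801) in the EGF samples against 55089, 45971 and 70121 in the PDGF-AA plus NT-3 samples (log2 difference -1.74 ± 0.28, limma adjusted p = 0.000274), and the helicase subunits Mcm5 (-0.69) and Mcm7 (-0.44) fell by less. In mitosis, Ube2c, which conjugates ubiquitin for cyclin destruction, had a median signal of 3230.3 (range 2835 to 3977) with EGF and signals of 4792, 4473 and 6228 with PDGF-AA and NT-3 (log2 difference -0.60 ± 0.20, limma adjusted p = 0.0384), a call that was lost in 6 of the 9 fits without a sample. The 5 mitosis genes that fell became 1 without EGF replicate 5 or PDGF-AA plus NT-3 replicate 1 and 2 without EGF replicate 2 or 3 or PDGF-AA plus NT-3 replicate 3, and none were called lower with the covariate. The 1 that rose was lost without PDGF-AA plus NT-3 replicate 2. The 3 replication genes that fell became 1 without PDGF-AA plus NT-3 replicate 3, and in the covariate fit 1 was lower and none higher. Of 18 genes of the G1 phase 4 rose and 3 fell (38.9% called), and 4 rose and 2 fell in the covariate fit. The kinase inhibitor Cdkn2c had a signal of 6449.7 to 9609.5 (median 8415) in the EGF samples against 3843, 3427 and 3297 in the PDGF-AA plus NT-3 samples (log2 difference 1.21 ± 0.14, limma adjusted p = 1.8e-05), the kinase Cdk6 rose by 1.85 (-1.01 from the probe set chosen without the filter), and cyclin D3 (Ccnd3, -1.16) and Cdk4 (-0.62) fell.

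Annexins, galectins and lysosomal genes were among those higher with EGF. Of 9 annexins, galectins and S100 proteins tested, 6 rose and none fell, with a median of 1.21. That is 66.7% called, against 22.5% over all genes. Without the filter on low signal, 6 of 14 rose and none fell, with a median of 0.93. Anxa5 had a median signal of 4843 (range 2254 to 5591) with EGF and signals of 183, 107 and 211 with PDGF-AA and NT-3 (log2 difference 4.36 ± 0.40, limma adjusted p = 1.38e-06), and galectin-1 (Lgals1) had a signal of 8017 to 16826 (median 11139) in the EGF samples against 1455, 1474 and 2519 in the PDGF-AA plus NT-3 samples (log2 difference 2.66 ± 0.26, limma adjusted p = 2.22e-06). Of 17 lysosomal genes, 6 rose and none fell (35.3% called), with a median of 0.69. Ctsc had a median signal of 16570.4 (range 11469 to 19607) with EGF and signals of 954, 880.3 and 1872 with PDGF-AA and NT-3 (log2 difference 3.73 ± 0.28, limma adjusted p = 2.34e-07), and Grn, the progranulin gene, had a signal of 30823 to 42678 (median 34389) in the EGF samples against 16977, 12916 and 13291 in the PDGF-AA plus NT-3 samples (log2 difference 1.30 ± 0.14, limma adjusted p = 6.99e-06). Other probe sets of Grn gave 0.25 and 0.53, without a call. Cathepsin D (Ctsd, 0.69), the hexosaminidase subunit Hexa (0.88) and prosaposin (Psap, 0.55) rose by less. With the covariate each group gave 4 genes higher and none lower.

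Matrix and adhesion genes were mixed. Of 23 collagens, laminins and integrins, 6 rose and 3 fell (39.1% called, against 22.5% over all genes). Itgb5, an integrin subunit, had a median signal of 4402 (range 3567 to 5547) with EGF and signals of 684, 399 and 897 with PDGF-AA and NT-3 (log2 difference 2.73 ± 0.27, limma adjusted p = 2.91e-06), and Itga6 rose by 1.82 and fibronectin (Fn1) by 1.05. The fibrillar collagen Col11a1 had a signal of 612 to 879.7 (median 661) in the EGF samples against 1722, 1655 and 1567 in the PDGF-AA plus NT-3 samples (log2 difference -1.20 ± 0.22, limma adjusted p = 0.000817). The 6 that rose became 3 without PDGF-AA plus NT-3 replicate 2, and the covariate fit gave 3 higher and 2 lower. Of 14 perineuronal matrix genes, Tnc and Cd44 rose and Cspg4, Ptprz1 and Vcan fell (35.7% called). In the covariate fit 2 were higher and 2 lower. Tnc had a median signal of 2889.8 (range 2062 to 3415) with EGF and signals of 458, 661 and 855 with PDGF-AA and NT-3 (log2 difference 2.05 ± 0.23, limma adjusted p = 9.62e-06), and Cd44 had a signal of 1191 to 2065 (median 1739) in the EGF samples against 235, 184 and 92.8 in the PDGF-AA plus NT-3 samples (log2 difference 3.00 ± 0.35, limma adjusted p = 1.46e-05).

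Of 35 axon guidance genes 6 rose and 4 fell (28.6% called, against 22.5% over all genes). The number that fell was 2 without any one of EGF replicates 1, 5 and 6 or PDGF-AA plus NT-3 replicate 1 or 2. The covariate fit gave 3 higher and 3 lower. The netrin receptors of the Unc5 family moved in opposite directions: Unc5b had a median signal of 3547 (range 2574 to 5091) with EGF and signals of 97.7, 165 and 579.8 with PDGF-AA and NT-3 (log2 difference 3.74 ± 0.49, limma adjusted p = 4.46e-05) and Unc5c a signal of 1225 to 1882 (median 1609) in the EGF samples against 3438, 3058 and 3714 in the PDGF-AA plus NT-3 samples (log2 difference -1.09 ± 0.16, limma adjusted p = 0.000169). The semaphorin Sema3d fell by 1.83 and the ephrin receptors Epha4 (1.51) and Epha3 (1.11) rose, Epha3 losing its call in 5 of the 9 fits without a sample. Among 13 ionotropic glutamate receptor subunits, Gria1 had a median signal of 2223 (range 1800.4 to 2497) with EGF and signals of 604, 1061 and 351 with PDGF-AA and NT-3 (log2 difference 1.72 ± 0.30, limma adjusted p = 0.000629), while Gria3 (-1.67), Grik3 (-1.62) and Gria2 (-0.88, with another probe set at 0.74) fell. Of the 13 subunits 30.8% were called. In the covariate fit none of these subunits was higher and 2 were lower. Of 24 potassium, sodium and calcium channel genes 5 rose and none fell (20.8% called, against 22.5% over all genes). The covariate fit gave the same counts, and 1 fell without EGF replicate 4 or 6. The 5 that rose were the voltage-gated potassium channels Kcna1 (1.57) and Kcnc1 (1.29), the voltage-gated calcium channel Cacna1b (1.11), the inward rectifier Kcnj10 (0.68) and the leak channel Kcnk1 (1.81). Kcna1, Kcnc1 and Cacna1b each had another probe set of opposite sign, the groups overlapped for Kcna1, and without the filter on low signal Cacna1b was read from another probe set that was called lower (-1.525, limma adjusted p = 0.0299).

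Of 21 genes of endoplasmic reticulum and amino acid stress, 3 fell and 1 rose (19% called, against 22.5% over all genes). Atf4, the transcription factor of the amino acid response, had a signal of 4125 to 6188 (median 5565) in the EGF samples against 10782, 12663 and 10520.3 in the PDGF-AA plus NT-3 samples (log2 difference -1.08 ± 0.15, limma adjusted p = 9.42e-05), and its targets asparagine synthetase (Asns, -0.89) and Sesn2 (-1.80) fell too, while the chaperone Dnajb9 rose by 1.23, and 5 genes fell without PDGF-AA plus NT-3 replicate 2 and 2 in the covariate fit. Of 22 genes of glycolysis and the hypoxia response, 4 rose and 3 fell (31.8% called). Pyruvate kinase (Pkm) had a median signal of 12726 (range 11504 to 18171) with EGF and signals of 7088, 6935 and 7102 with PDGF-AA and NT-3 (log2 difference 0.90 ± 0.14, limma adjusted p = 0.000259), and lactate dehydrogenase A (Ldha) fell by 0.73. In that list 2 rose without PDGF-AA plus NT-3 replicate 2 or 3 and 1 fell without PDGF-AA plus NT-3 replicate 1, and in the covariate fit 2 rose and none fell. Of 13 imprinted genes 2 rose and 2 fell (30.8% called). Only 1 rose without EGF replicate 4 or PDGF-AA plus NT-3 replicate 1 or 3. In the covariate fit none of them was higher and 4 were lower, so that this split depends on the fit. Mest had a signal of 6015 to 10191 (median 7703) in the EGF samples against 3363, 4044 and 5436 in the PDGF-AA plus NT-3 samples (log2 difference 0.89 ± 0.21, limma adjusted p = 0.00491), and Magel2 had a median signal of 777 (range 577 to 1138) with EGF and signals of 1855, 1819.8 and 1435 with PDGF-AA and NT-3 (log2 difference -1.04 ± 0.24, limma adjusted p = 0.00474). The 10 interferon and antigen presentation genes gave 2 higher and 1 lower (30% called). The 1 lower was lost without any one of EGF replicates 1, 2, 3 and 5 or PDGF-AA plus NT-3 replicate 1 or 2. For this list the covariate fit gave 1 higher and none lower.

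Markers of other cells that neurospheres could hold were mostly under the chip's median in both groups. Of 15 microglial markers 5 passed the filter and 1 had a mean at or above the chip's median in each group, and their summed signal was 3930 to 5570 with EGF and 3230 to 4020 with PDGF-AA and NT-3. For 10 endothelial markers the sum was 3550 to 5210 and 3000 to 3450, and for 4 red cell markers 722 to 1180 and 597 to 1120. For 11 markers of mural cells and fibroblasts it was 8600 to 13700 with EGF and 3170 to 4710 with PDGF-AA and NT-3, and the groups did not overlap. That gap was mostly Acta2, smooth muscle actin, with a signal of 5307 to 10667 (median 7664) in the EGF samples against 546, 1996 and 827 in the PDGF-AA plus NT-3 samples (log2 difference 2.86 ± 0.35, limma adjusted p = 2.11e-05). The receptors Csf1r of microglia (1.25) and Kdr of endothelium (1.48) were also called higher, 1 gene of the 5 tested in each list (20% called, against 22.5% over all genes). Neither list had a gene called in the covariate fit, and the microglial call was also lost without PDGF-AA plus NT-3 replicate 1. For mural cells and fibroblasts 1 of 4 tested rose (25% called) and 1 was higher in the covariate fit. In that list 2 rose without EGF replicate 5 or PDGF-AA plus NT-3 replicate 3, and 1 fell without EGF replicate 3. No marker was at 0 in any sample, and the part of these cells in the other results was not tested. Of 12 ciliary genes 2 rose and 2 fell (33.3% called), the ciliogenesis factor Foxj1 rising by 2.27. The 2 that rose became 1 in 7 of the 9 fits without a sample, the 2 that fell became 1 without PDGF-AA plus NT-3 replicate 2 or 3, and the covariate fit gave 1 higher and none lower.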

How the data were processed

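RNA of each sample was hybridised to MOE430A and MOE430B. The authors deposited one intensity per probe set, a linear MAS5 signal according to the submitters' processing notes, which give no version. Instrument files, deposited with settings of the fluidics and scanner as other values, were read only for hybridisation runs. Arrays had a 2% trimmed mean of 1500.2 to 1500.77, so the authors' scaling was kept. The number of arrays limits the precision.

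Symbols came from the platform tables (20393 and 14674 probe sets with 1 symbol, 691 and 245 with several, 1606 and 7656 with none); 20364 and 14499 matched RefSeq of GRCm38.p6. Probe sets were kept if at least 3 of 15 arrays had them at or above the median signal, and each gene was read from 1 probe set, MOE430A first, then the highest mean log2 signal. Signals were transformed as log2(signal + pseudocount), with the 10th percentile of the chip (52.0 and 115) as pseudocount, and analysed in R 4.3.3 with limma 3.58.1 (eBayes with trend, all 15 samples, 12 residual degrees of freedom), checked on simulated data. The simulation gave each gene the same spread in all conditions, so it cannot check the model where spreads differ. Same-numbered samples correlated at -0.02, -0.00 and 0.02, which gave no sign that numbers pair samples. So few values cannot settle it, and samples were treated as unpaired.

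The text names the 15 largest called changes in each direction without overlap, the receptors, and members of gene lists. For each of 40 lists a rule took up to 4 called members with the smallest adjusted p. Not all of these are named, among them Fzd5, Lrp6 and Ctnnb1 of the Wnt list and Ndn and Meg3 of the imprinted list. Other members were named after their values were seen, to complete a count. Members and lists were chosen with earlier results of these data known. Other probe sets were not given for every gene, and some of the same sign were smaller and not called. Among these were probe sets of Lss (-0.76 and -0.42), Atf4 (-0.22), Fen1 (-0.55), Id2 (-0.64), Unc5b (0.78) and Unc5c (-0.61).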

Additional observations from a re-analysis of the deposited data

Results flagged for a closer look

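Among the values of the genes named above and the 4 control ratios, 206 groups of 6 EGF samples were checked for a sample that stood apart by Dixon's criterion, and 17 held one. Chance flags about 1 in 20 such groups. Groups of 3 cannot be checked in this way.

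In EGF replicate 1, Col11a1 was high (879.7, others 612.1 to 700.9) and so was Slc17a6 (190.1, others 38.25 to 67.13), whereas Enpp6 (1699, others 2638 to 2973) and Gria3 (147, others 566.8 to 798.3) were low. In EGF replicate 2, Mbp was high (35000 after rounding, others 21400 to 25010), as was Olig1 (52780, others 39320 to 42950). In the same sample Anxa5 (2254, others 4369 to 5591), Igfbp3 (3829, others 5943 to 7585) and Plekha1 (1278, others 2205 to 2950) were low. In EGF replicate 3, Elavl3 (4654, others 7520 to 8731) and Lhfpl3 (4266, others 6111 to 7269) were low. In EGF replicate 4, Car2 was high (12510, others 4885 to 6939) and the log2 3'/5' ratio of Actb on MOE430B was low, at 2.43. In EGF replicate 5, Vgf was high (2088, others 376.6 to 574). In EGF replicate 6, Dhcr7 was high (25510, others 8256 to 11790), as was Ech1 (2482, others 1214 to 1554), and Dll3 was low (1551, others 2285 to 2790).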

How the results depend on the processing

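The main counts were 1960 genes higher and 1159 lower with EGF. They became 1396 and 755 with array weights, 1306 and 687 with a spread of its own for each condition, and 996 and 581 with the 3'/5' ratio as a covariate (chosen after seeing the data), where ratio and condition move together. Requiring a 2-fold difference left 1177 and 443, by construction. The hybridisation run as a random block, also added later, gave 1921 and 1137. Leaving out 1 sample gave 1717 to 1839 higher and 841 to 1122 lower. With the replicate number as a block the counts were 328 and 239. Whether the numbers pair these samples is not known, and the cause of the fall was not tested. All other fits of this comparison, with other pseudocounts, centring, quantile normalization, filters, probe set summaries or the 2 groups alone, stayed within 1.5 times of the main counts.

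Leaving out 1 sample, the log2 difference of the 3'/5' ratio ran from -0.679 to -0.415 for Actb and from -0.516 to -0.0863 for Gapdh on MOE430A, and from -0.858 to -0.53 for Actb and -0.532 to -0.463 for Gapdh on MOE430B. Of 202 genes followed, the sign turned for Cacna1b (-1.525), Cdk6 (-1.009), Cdon (-0.6125), Grik3 (0.1903) and Pik3cd (0.8305) without the filter, which reads them from another probe set, for Ccnd1 with the mean of probe sets (0.0197), for Rps3 after quantile normalization (0.1312), for Myrf with the replicate block (-0.1207) and with the covariate (-0.3864), for Olig2 with the covariate (-0.1384), and for Sox2, which ran from -0.1935 to 0.008243 as single samples were left out. Of these reversed values that of Cacna1b was called and the others were not. Among the same 202, 57 were no longer called with the covariate, 26 with a separate spread for each condition and 91 with the block. Of the 186 called genes followed, 37 lost the call in at least 1 of the 9 fits that left out a sample. Besides those given in the report, these were Cacna1b, Cox5a, Fn1, Id4, Ldha, Mcm7, Myt1l, Rarb, Rps3 and Sp8 in 2 fits each, and Axin2, Cnp, Csf1r, Gap43, Kcnj10, Kcnk1, Mcm5, Npy, Psap, Rbfox3, Six3 and Syn1 in 1 each.

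No depth is defined for arrays; signals under the chip's 25th percentile rest on the pseudocount.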
